A study of Homo sapiens with 16 samples.

Results

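The BCL2 family apoptosis regulators described here are 10 genes, BCL2, BCL2L1, BCL2L2, MCL1, BAK1, BOK, BID, BIK, BCL2L11 and PMAIP1, of the 58051 genes in the count table. Their rows were found by gene name, through the Ensembl identifiers, and the rule uses no measured value. The members were, however, chosen with earlier results of these data known. RNA-seq was performed on LNCaP, an androgen receptor-positive line of human prostate cancer cells, in 2 experiments with 4 libraries in each of 4 groups. The knockdown experiment compared siRNA against XBP1 (siXBP1) with Allstar control siRNA (siCtrl), 2 days after transfection. For the inhibitor experiment, the medium held either DMSO (Vehicle) or 10 µM MKC8866, a small molecule that blocks the RNase activity of IRE1α, for 24 h. Thapsigargin, which blocks the calcium pump of the endoplasmic reticulum (ER) and thereby causes ER stress, was added to all 16 samples at 30 nM for 3 h, so each comparison is between stressed cells of 1 cell line and no unstressed group was measured. The labels do not say whether replicates came from separate cultures, and p-values measure the spread between these samples, which may be technical.

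Proteins of this family decide whether the outer membrane of the mitochondrion is permeabilized. The guardians BCL2, BCL2L1 (BCL-XL), BCL2L2 (BCL-W) and MCL1 keep the membrane intact by holding their pro-apoptotic relatives, BAK1 and BOK belong to the effectors that form pores in it, and BID, BIK, BCL2L11 (BIM) and PMAIP1 (NOXA) are BH3-only proteins that block the guardians or activate the effectors. Prolonged ER stress is known to engage this switch, in large part through BH3-only proteins induced downstream of the unfolded protein response, of which the IRE1α-XBP1 branch is 1 arm.

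The libraries held 28713607 to 34509488 counted fragments, and each of the 10 members passed the filter on low counts, with 99 fragments (BCL2) as the lowest count of any member in any library. XBP1 itself fell by 2.85 on the log2 scale after knockdown, from 383 ± 28.0 to 53.2 ± 1.40 CPM (fragment counts scaled to a common library size, mean ± SD, n = 4), and was 0.20 higher on that scale with MKC8866 (edgeR adjusted p = 0.00493). Spliced and unspliced XBP1 mRNA are not separated in these counts. FICD and DNAJB9, known XBP1 targets, had log2 fold changes of -2.52 and -2.31 after knockdown and of -2.06 and -1.87 with MKC8866. SERP1, also a known target, ranged from -1.55 to -1.45 after knockdown and from -0.78 to -0.71 with MKC8866 over 15 alternatives. In the test below of knockdown against inhibitor response, these genes and XBP1 were all called lower (4 of 4), against 12.7% of all genes tested. The differences ran from -3.05 to -0.44 on the log2 scale, so the targets fell less with MKC8866. The 8 prostate luminal markers used here were all expressed, with a summed level of 3038 to 3137 CPM in siXBP1 against 3589 to 3741 CPM in siCtrl, 4 of the 8 (KLK3, KLK2, TMPRSS2 and KRT18) were lower after knockdown. With MKC8866 the sum was higher, at 3924 to 4088 CPM against 3594 to 3785 CPM in Vehicle, with KLK3 called higher (log2 fold change 0.46, adjusted p = 2.75e-08) and KRT18 lower (-0.22, adjusted p = 0.00150). The summed luminal level thus moved in opposite directions in the knockdown and inhibitor experiments, although KRT18 was called lower in both. KLK2 and TMPRSS2 were not called with MKC8866. The part of these shifts in the results below, interaction included, was not tested. Of 10 markers of leukocytes, fibroblasts, endothelium and basal cells, PTPRC, DCN, PECAM1 and KRT5 stayed at or below 0.104 CPM in every library, and the summed level, 36.6 to 45.3 CPM in siCtrl and 44.0 to 48.5 CPM in siXBP1, came mostly from COL1A1. COL3A1, a fibroblast collagen, was the single one of the 6 tested that was called after knockdown, with 1.82 to 2.27 CPM in siCtrl and 3.43 to 4.90 CPM in siXBP1 (log2 fold change 1.10, adjusted p = 1.32e-06), and its part in the results was not tested. In bulk RNA, fewer cells of a kind and less RNA per cell cannot be told apart.

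MCL1 was the most abundant of the 4 guardians per length of all exon bases, and BCL2 had by far the lowest level. In siCtrl cells, MCL1 (chr1:150574551-150579738, minus strand, GRCh38) stood at 55.1 ± 1.57 CPM per kb, BCL2L1 (chr20:31664452-31723989, minus strand) at 35.5 ± 1.04, BCL2L2 (chr14:23298790-23311759, plus strand) at 20.1 ± 0.768 and BCL2 (chr18:63123346-63320128, minus strand) at 0.306 ± 0.0364 (SD, n = 4). MCL1 thus made up 49.7% ± 1.20 of the summed guardian level and BCL2 0.276% ± 0.0345, a value that did not exceed 0.436% in any of the 16 libraries.

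This order rests in part on the way fragments were counted. The authors' counting ignored strand and left out fragments that overlap more than 1 gene, and BCL2L1 shares 43.0% of its exon bases with ABALON on the opposite strand, while BCL2L2 shares 19.4% with the readthrough gene BCL2L2-PABPN1 and 4.92% with PPP1R3E. Per kb of the exon bases that no other gene shares, BCL2L1 reached 62.2 ± 1.81 CPM per kb in siCtrl, above MCL1 at 55.1 ± 1.57, whereas in Vehicle cells MCL1 (66.7 ± 1.20) stayed above BCL2L1 (55.5). In siXBP1 BCL2L1 (52.7 ± 1.66) and MCL1 (51.5 ± 2.02) were close and overlapped on this scale. The rank of MCL1 and BCL2L1 in siCtrl and siXBP1 therefore depended on the length used, while BCL2L2 and BCL2 came behind both under either length. The shares in siCtrl depended on it as well. Per unshared exon bases, MCL1 made up 38.2% ± 1.13 and BCL2L1 43.1% ± 0.940 of the summed guardian level. BCL2 made up 0.213% on this scale and 0.808% with no division by length.

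**Figure D1:**
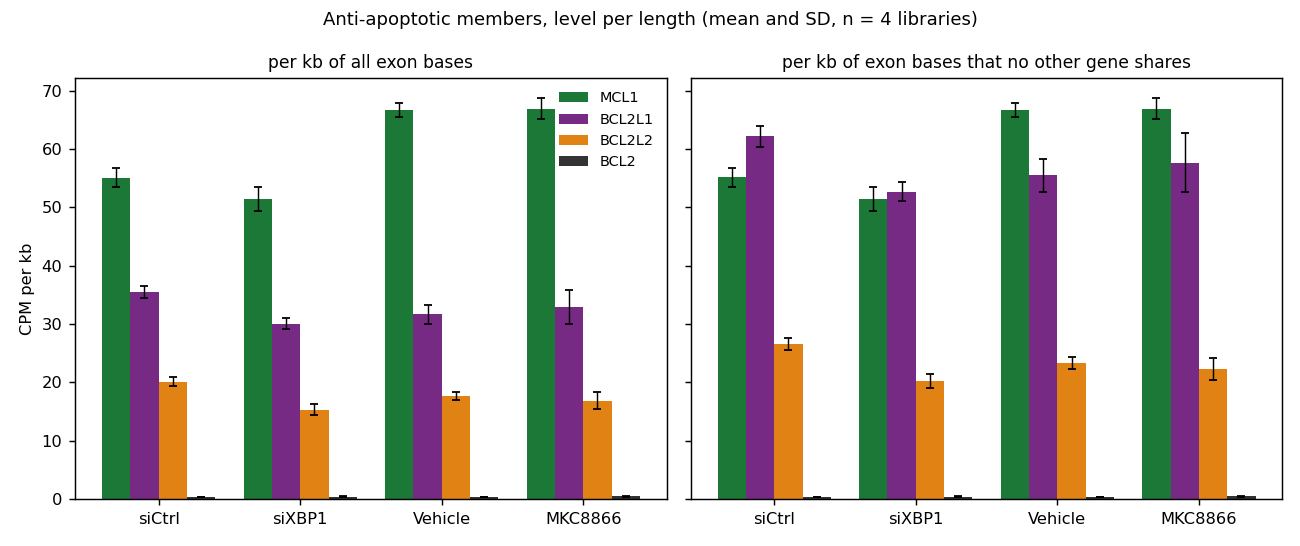
Level of the 4 anti-apoptotic members in CPM per kb (bars, mean; error bars, SD of 4 libraries) in each group, divided by all exon bases (left) or by the exon bases that no other annotated gene shares (right). MCL1 stands at 55.1 and BCL2L1 at 35.5 CPM per kb in siCtrl on the left, BCL2L1 reaches 62.2 on the right, and BCL2 stays at the bottom of both panels.

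XBP1 knockdown changed 7 of the 10 members. All 4 BH3-only members rose, BCL2L1, BCL2L2 and the effector BAK1 fell, and BCL2, MCL1 and BOK did not pass the test (edgeR quasi-likelihood test, Benjamini-Hochberg adjusted p under 0.05). The knockdown changed 34.8% of the 21021 genes tested, with 16.5% higher and 18.2% lower, so calls were frequent in this comparison. All 10 members had an unadjusted p under 0.05, as did 42.1% of genes. The treated and control libraries did not overlap for the same 7 members, a separation seen for 32.8% of all genes tested. The median log2 fold change was 0.33 over the BH3-only members and -0.17 over the guardians, against 0.0050 over all genes. Every change was modest, with 0.46 (BIK) and -0.39 (BCL2L2) as the outermost log2 values among the called members.

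**Figure D2:**
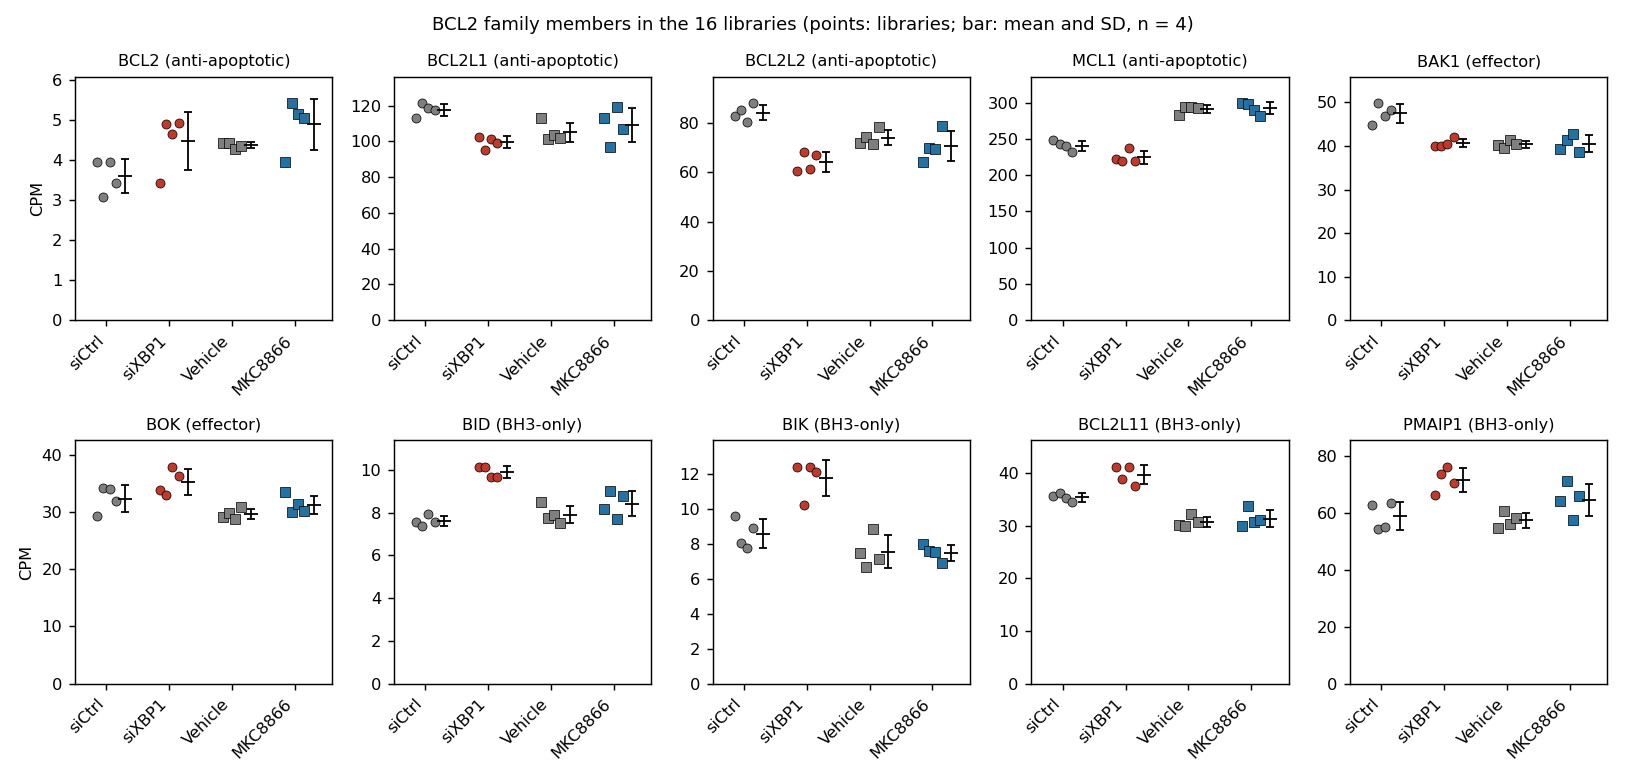
CPM of each member in each of the 16 libraries (points), with the mean and SD of each group of 4 beside them, on axes that start at 0. The siXBP1 points lie above all siCtrl points for BID, BIK, BCL2L11 and PMAIP1 and below them for BCL2L1, BCL2L2 and BAK1, and the MKC8866 and Vehicle points overlap for all 10 genes.

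Among the guardians, BCL2L2, which protects cells much as BCL-XL does, had the largest decrease. Its level was 82.9, 85.3, 80.4 and 87.9 CPM in the siCtrl libraries and 60.5, 68.3, 61.2 and 66.8 CPM in the siXBP1 libraries. The lowest control library was above the highest knockdown library, and the log2 fold change was -0.39 (SE 0.05, edgeR adjusted p = 1.06e-06). PPP1R3E, the overlapping gene on the other strand, moved the other way (log2 fold change 0.17, edgeR adjusted p = 0.0114). BCL2L2-PABPN1 had 4 to 17 counted fragments per library. Fragments that overlap both genes were left out of the counts, so this low number does not give the expression of the readthrough gene.

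BCL2L1, the gene of BCL-XL, stood at 113.0, 121.3, 118.4 and 117.4 CPM in siCtrl and at 102.4, 95.3, 101.4 and 99.2 CPM in siXBP1. Here too the groups were separate, with a log2 fold change of -0.24 (SE 0.04, edgeR adjusted p = 8.23e-05). Its partner ABALON was counted with 32 to 73 fragments per library, without those in the shared bases, and did not pass the test (log2 fold change 0.41, edgeR adjusted p = 0.0816).

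MCL1, a short-lived guardian whose protein is set largely by its turnover, was measured at 248.9, 242.4, 239.9 and 232.3 CPM in siCtrl and at 222.3, 219.2, 238.0 and 220.2 CPM in siXBP1. Replicate 3 of siXBP1 lay within the control range and the other 3 lay below it. The log2 fold change of -0.10 (SE 0.04, edgeR adjusted p = 0.0613) was not called, but it passed without that library (-0.12, adjusted p = 0.0194) and in a fit of all 16 libraries (adjusted p = 0.0308).

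BCL2, the founding guardian of the family, ranged from 3.08 to 3.95 CPM in siCtrl and from 3.42 to 4.93 CPM in siXBP1. The groups overlapped through siXBP1 replicate 1, at 3.42 CPM, and the log2 fold change was 0.32 (SE 0.13, edgeR adjusted p = 0.0614). Without that library it was 0.43 (adjusted p = 0.00992), and without siCtrl replicate 1 it was 0.37 (adjusted p = 0.0473), and 3 other settings called it too, among them the fit of all 16 libraries (adjusted p = 0.0435).

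The summed guardian level was 111 ± 1.29 CPM per kb in siCtrl and 97.2 ± 1.95 in siXBP1 (SD, n = 4), given as a description without a test. Libraries ranged from 109.8 to 112.7 in siCtrl and from 95.6 to 100.1 in siXBP1 and did not overlap. The share of BCL2L2 in this sum was 18.1% ± 0.720 in siCtrl and 15.8% ± 1.18 in siXBP1, and that of MCL1 49.7% and 52.9%. These sums and shares use all exon bases. Per unshared exon bases, BCL2L2 made up 18.4% in siCtrl and 16.2% in siXBP1, and MCL1 38.2% and 41.2%.

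The effector pair went separate ways. BAK1 (chr6:33572547-33580293, minus strand), which forms pores at the mitochondrial outer membrane, had 44.9, 49.8, 47.0 and 48.2 CPM in siCtrl and 40.1, 40.0, 40.6 and 42.2 CPM in siXBP1. All knockdown libraries were below all controls, with a log2 fold change of -0.22 (SE 0.05, edgeR adjusted p = 0.000879). BOK (chr2:241558721-241574138, plus strand), an effector that is removed by ER-associated degradation, had 29.2 to 34.2 CPM in siCtrl and 33.0 to 37.9 CPM in siXBP1, ranges that overlap, and its log2 fold change of 0.13 (SE 0.06, edgeR adjusted p = 0.118) was not called. BAK1 shares 4.11% of its exon bases with GGNBP1 and BOK 7.56% with BOK-AS1, each on the opposite strand. Each partner had at most 13 counted fragments in any library, without those in the shared bases.

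The 4 BH3-only genes among the members increased on knockdown of XBP1. BIK (chr22:43110748-43129712, plus strand), which resides at the ER membrane, had 9.60, 8.04, 7.78 and 8.91 CPM in siCtrl and 12.4, 10.3, 12.4 and 12.1 CPM in siXBP1. Replicate 2 of siXBP1 was the lowest of its group and still above each control, and the log2 fold change was 0.46 (SE 0.09, edgeR adjusted p = 0.000254). None of the 4 genes shares exon bases with another gene.

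BID (chr22:17734138-17774770, minus strand), which caspase-8 cleaves into its active form, was at 7.55, 7.36, 7.94 and 7.56 CPM in siCtrl and at 10.2, 10.2, 9.66 and 9.67 CPM in siXBP1. The knockdown libraries lay in a narrow band above the controls, with a log2 fold change of 0.38 (SE 0.08, edgeR adjusted p = 0.000421). In the deposited counts the weakest BID library had 224 fragments and the weakest BIK library 194, so their relative counting error was larger than that of MCL1, whose lowest count was 6437.

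PMAIP1 (chr18:59899948-59904306, plus strand), the gene of NOXA, which binds MCL1, had 62.8, 54.4, 55.2 and 63.5 CPM in siCtrl and 66.5, 73.6, 76.4 and 70.5 CPM in siXBP1. The lowest knockdown library was above the highest control, and the log2 fold change was 0.28 (SE 0.06, edgeR adjusted p = 0.000392). BCL2L11 (chr2:111119378-111168447, plus strand), the gene of BIM, had 35.6, 36.3, 35.2 and 34.4 CPM in siCtrl and 41.26, 38.93, 41.18 and 37.51 CPM in siXBP1. Its change was the smallest of the group (log2 fold change 0.17, SE 0.05, edgeR adjusted p = 0.0118), again with no overlap. Summed per length, the BH3-only members stood at 42.4 ± 2.90 CPM per kb in siCtrl and 52.7 ± 1.98 in siXBP1, of which PMAIP1 alone gave 26.4 and 32.1.

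The promoters of the members, from 250 bases before to 50 after each start in RefSeq (GRCh38.p14), were searched on both strands for ACGTG, the core that XBP1 is known to bind, for CCACG, for the ER stress element (CCAAT and CCACG with 9 bases between them), and for TGATGNAAT, the composite element of CHOP and ATF4. Entries were found for 7 members, not for BCL2L2, MCL1 and BIK. BID was the single member with ACGTG, at 2 of its 5 starts, and CCACG was found at 4 starts of BID and at the start of PMAIP1, while the promoters of BCL2, BCL2L1, BAK1, BOK and BCL2L11 in the table held none of the 4 motifs. ACGTG occurs in 21.4% and CCACG in 38.1% of the 35116 promoters in the table, against 0.0769% for the ER stress element and 0.991% for TGATGNAAT. Shown are the BID window with ACGTG and the PMAIP1 window, because both genes rose on knockdown of XBP1. The motif is in capitals and both are read from the minus strand.
BID, chr22:17774072-17774100: tgtgtcctctccACGTGgcctggggattc
PMAIP1, chr18:59899960-59899988: ccgcgccagagaCCACGcttttgtccagt
The BID window shown lies inside the span of the gene and in no annotated exon of it, with ACGTG at -105 and -46 relative to 2 RefSeq starts. Windows with CCACG at chr22:17774490-17774518 and chr22:17773934-17773961 are not shown. Of their 29 and 28 bases, 6 and 28 lie in exons of BID. In the BID window shown, ACGTG and CCACG both match on either strand and overlap each other. The PMAIP1 window lies in the first bases of the gene as annotated in the count table, with CCACG at -24 relative to the RefSeq start and on the strand opposite to the gene. These matches are letters in a sequence, and binding was not measured.

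MKC8866 changed none of the 10 members by the same test, which did not pair libraries by replicate number. In this comparison 4.47% of 21045 genes were called, 1.36% higher and 3.11% lower, and all 10 members had overlapping treated and Vehicle libraries, where 9.28% of genes did not overlap. PMAIP1 came nearest and was the single member with an unadjusted p under 0.05, against 15.2% of all genes. It had 54.8, 60.9, 56.2 and 58.3 CPM in Vehicle and 64.2, 71.2, 57.6 and 66.2 CPM with MKC8866, so that all but replicate 3 of the treated libraries lay above the Vehicle range. Its log2 fold change was 0.17 (SE 0.06, edgeR adjusted p = 0.0870), and it passed without MKC8866 replicate 3 (0.22, adjusted p = 0.0175), without a filter on low counts (adjusted p = 0.0231) and in a fit with a term for the replicate number (adjusted p = 0.000390). DESeq2 called no member either.

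The other 9 members were close to their control level. For BIK, BAK1 and MCL1 the log2 fold change was -0.01, 0.01 and 0.01, with 95% intervals of -0.20 to 0.18, -0.10 to 0.11 and -0.07 to 0.08. For BCL2L2 it was -0.06 (-0.17 to 0.05), for BCL2L1 0.06 (-0.05 to 0.17) and for BCL2L11 0.03 (-0.08 to 0.14). These intervals leave out changes of the size that BCL2L2, BIK and BAK1 showed on knockdown. The intervals were wider for BID (0.10, from -0.07 to 0.27) and BCL2 (0.17, from -0.05 to 0.39), and MKC8866 replicate 1 of BCL2, at 3.96 CPM, was below all Vehicle libraries while the other 3, at 5.03 to 5.41 CPM, were above them.

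**Figure D3:**
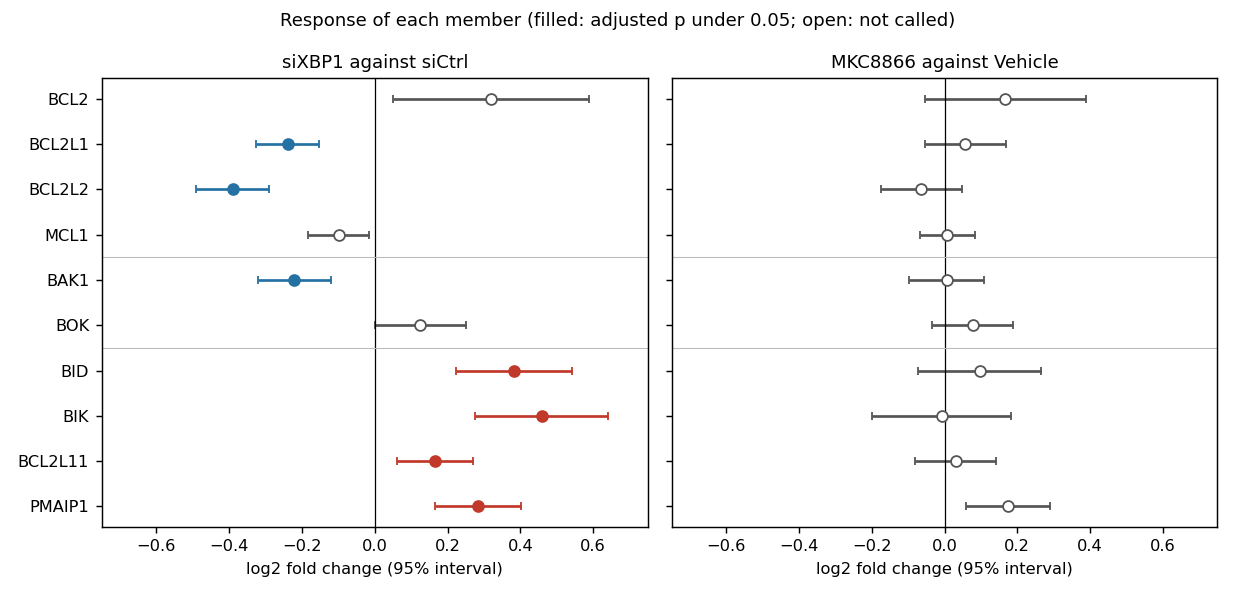
Log2 fold change of each member with its 95% interval, after XBP1 knockdown against siCtrl (left) and with MKC8866 against Vehicle (right), filled where the adjusted p was under 0.05. On the left BID, BIK, BCL2L11 and PMAIP1 are to the right of 0 and BCL2L1, BCL2L2 and BAK1 to the left, with values from -0.39 to 0.46, and on the right no symbol is filled.

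The difference between both responses was tested as an interaction over all 16 libraries, and 5 members passed, against 23.3% of the 20357 genes tested, 10.6% higher and 12.7% lower. Relative to MKC8866, knockdown gave lower values for BCL2L2 (difference of log2 fold changes -0.32, SE 0.08, edgeR adjusted p = 0.00180), BCL2L1 (-0.29, SE 0.07, adjusted p = 0.00240) and BAK1 (-0.22, SE 0.07, adjusted p = 0.0120). Higher values were found for BIK (0.47, SE 0.13, adjusted p = 0.00807) and BID (0.29, SE 0.11, adjusted p = 0.0465). BID was at the edge, with adjusted p from 0.0322 to 0.155 over 22 alternatives and 7 of them past the threshold. The responses of PMAIP1 (0.11, adjusted p = 0.386) and BCL2L11 (0.14, adjusted p = 0.173) were not shown to differ, although knockdown alone passed the test for each. Transfection, time and kind of inhibition differ together between the experiments and cannot be told apart. The XBP1 targets FICD, DNAJB9 and SERP1 also fell less with MKC8866 than after knockdown, and the part of this in the interaction was not tested.

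The control groups themselves were not equal. Between siCtrl and Vehicle, 5 members differed, against 15% of all 20357 genes, with BCL2L1, BCL2L2, BAK1 and BCL2L11 higher (7.65% of genes were) and MCL1 lower (7.39%) in siCtrl. The libraries of these groups did not overlap for 6 members, as for 17.8% of genes. Over all genes, 1558 were higher and 1505 lower, a split that became 1249 and 1809 when libraries were scaled by total counts only, and the 5 members were called under either. Among these 5, MCL1 had the largest difference, with 283.5, 294.5, 294.3 and 293.1 CPM in Vehicle, all above the siCtrl libraries given above (log2 difference -0.27, SE 0.04, edgeR adjusted p = 3.60e-06). BAK1 was at 39.5 to 41.5 CPM in Vehicle, as low as in siXBP1, and 0.23 higher on the log2 scale in siCtrl (SE 0.05, adjusted p = 0.000656). The corresponding log2 differences were 0.20 for BCL2L11 (adjusted p = 0.00486), 0.19 for BCL2L2 (adjusted p = 0.0142) and 0.16 for BCL2L1 (adjusted p = 0.0236), and the latter 2 were lost without some single libraries, with adjusted p up to 0.0560 and 0.0777.

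Set in order over the 4 groups, siXBP1 was highest for BID, BIK, BCL2L11, PMAIP1 and BOK and lowest for BCL2L1, BCL2L2 and MCL1. For BID, BIK and BCL2L11 the siXBP1 libraries overlapped with no library of the group next in order, while for PMAIP1 (71.8 ± 4.27 CPM) they overlapped with MKC8866 (64.8 ± 5.66 CPM). For MCL1, MKC8866 (292 ± 7.87 CPM) and Vehicle (291 ± 5.25 CPM) overlapped with each other, both were above siCtrl (241 ± 6.86 CPM), and siCtrl overlapped with siXBP1 (225 ± 8.81 CPM). BAK1 was highest in siCtrl (47.5 ± 2.08 CPM), with the other 3 groups between 40.4 and 40.7 CPM on average and overlapping. For BOK and BCL2 every neighbouring pair overlapped except Vehicle and siCtrl in BCL2.

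Of 11 further family members, 8 could be tested, and after knockdown BAX and BBC3 rose and BCL2L12 and BCL2L13 fell. BBC3 (PUMA), a BH3-only gene, went from 7.88 ± 0.569 to 14.8 ± 1.78 CPM (log2 fold change 0.91, SE 0.09, edgeR adjusted p = 3.33e-08), a larger change than in any of the 10 members. BAX, the effector that works beside BAK1, went from 29.2 ± 0.908 to 42.1 ± 1.27 CPM (0.52, SE 0.05, adjusted p = 1.94e-08), so that BAX and BAK1 moved in opposite directions. BCL2L12 (-0.25, adjusted p = 0.00137) shares 33.1% of its exon bases with IRF3 on the opposite strand, and BCL2L13, a mitochondrial membrane protein, fell by 0.11 on the log2 scale (adjusted p = 0.0208), a call held in 9 of 15 alternatives. The other BH3-only genes tested, BAD (log2 fold change 0.05, adjusted p = 0.650), BMF (0.09, adjusted p = 0.415) and HRK (0.09, adjusted p = 0.826), were not called, so a rise was found for 5 of the 8 BH3-only genes tested. HRK was weakly expressed, at 1.00 ± 0.269 CPM in siCtrl and 1.06 ± 0.194 in siXBP1. Its 95% interval, -0.39 to 0.56, includes changes of the size seen for BIK and BID. BAD shares 23.7% of its exon bases with GPR137 on the opposite strand. MKC8866 changed none of the 8 by the edgeR test, where 4.47% of all genes were called. With MKC8866, 2 of the 8 had an unadjusted p under 0.05 and 1 was called lower with the replicate block. The interaction passed for 5 of the 8, against 23.3% of all genes tested. It was higher for BBC3 (0.78, adjusted p = 3.01e-05), BAX (0.55, adjusted p = 2.29e-07) and BMF (0.30, adjusted p = 0.0418), and lower for BCL2L12 (-0.24, adjusted p = 0.0304) and BCL2L13 (-0.15, adjusted p = 0.0220). Over 22 alternatives the interaction held in 22 for BBC3 and BAX, 13 for BMF, 14 for BCL2L12 and 19 for BCL2L13. Counting the whole family, 6 of 18 tested genes rose and 5 fell after knockdown, against 16.5% and 18.2% of all genes tested.

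Downstream of the mitochondrion, no gene of the apoptosome, caspase and inhibitor of apoptosis (IAP) list rose after knockdown and 5 of 16 tested fell. Over all genes tested, 16.5% rose and 18.2% fell after knockdown, and 4.47% were called with MKC8866. The cellular IAPs BIRC3 and BIRC2 had log2 fold changes of -1.01 and -0.56 (edgeR adjusted p = 1.18e-12 and 3.72e-10), XIAP, which inhibits executioner caspases, of -0.23 (adjusted p = 0.000336), and CASP2, an initiator caspase, of -0.19 (adjusted p = 0.00372). The median over the list was -0.14 (log2). With MKC8866, BIRC3 alone was called, and it was higher, from 47.6 ± 1.82 to 54.0 ± 2.01 CPM (0.18, edgeR adjusted p = 0.0273), a call lost without some single libraries (adjusted p up to 0.130). XIAP and BIRC2 had lower values with MKC8866 that were not called (-0.20 and -0.14, adjusted p = 0.0634 and 0.0710). Over the alternatives, 0 to 4 genes of the list were called with MKC8866. The interaction for BIRC3 was -1.19 (SE 0.07, edgeR adjusted p = 5.92e-14) and for BIRC2 -0.42 (adjusted p = 1.10e-06). For XIAP, at -0.03 (adjusted p = 0.874), the responses were not shown to differ.

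Of 12 genes of mitochondrial partners, 6 fell and 1 rose after knockdown, and none was called with MKC8866 (1 at an unadjusted p under 0.05, 2 called lower with the replicate block). Over all genes tested, 18.2% fell and 16.5% rose after knockdown. With MKC8866, 4.47% were called and 15.2% had an unadjusted p under 0.05. BNIP3L and BNIP3, mitophagy receptors related to the BH3-only proteins, had log2 fold changes of -0.88 and -0.65 (edgeR adjusted p = 2.69e-13 and 3.32e-11). OPA1 and MFN1, which fuse mitochondrial membranes, were at -0.31 and -0.28 (adjusted p = 2.47e-06 and 3.04e-05), and ENDOG, a mitochondrial nuclease, rose by 0.44 (adjusted p = 0.000733). The list median was -0.10.

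Among 9 genes that set the turnover of the MCL1 and BOK proteins, 2 rose and 5 fell after knockdown, where 16.5% and 18.2% of all genes did. FBXW7 and BTRC, receptors of ubiquitin ligases that mark MCL1, had log2 fold changes of -0.43 and -0.38 (edgeR adjusted p = 1.79e-05 and 4.38e-05), the ligase HUWE1 (MULE) of -0.24 and the deubiquitinase USP13 of -0.19 (adjusted p = 0.0123, held in 13 of 15 alternatives). The call for HUWE1 (adjusted p = 0.00987) was lost in DESeq2 (0.0979) and without some single libraries. MARCHF5, a ligase of the mitochondrial membrane, rose by 0.26 (adjusted p = 0.000190) and USP9X, a deubiquitinase of MCL1, by 0.13 (adjusted p = 0.0146). VCP, the ATPase that extracts proteins for degradation, fell by 0.28 on the log2 scale with MKC8866, from 711 ± 12.3 to 584 ± 4.97 CPM (adjusted p = 2.54e-06), and had a log2 fold change of -0.12 on knockdown (adjusted p = 0.0166). These are mRNA levels, and protein was not measured here.

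**Figure D4:**
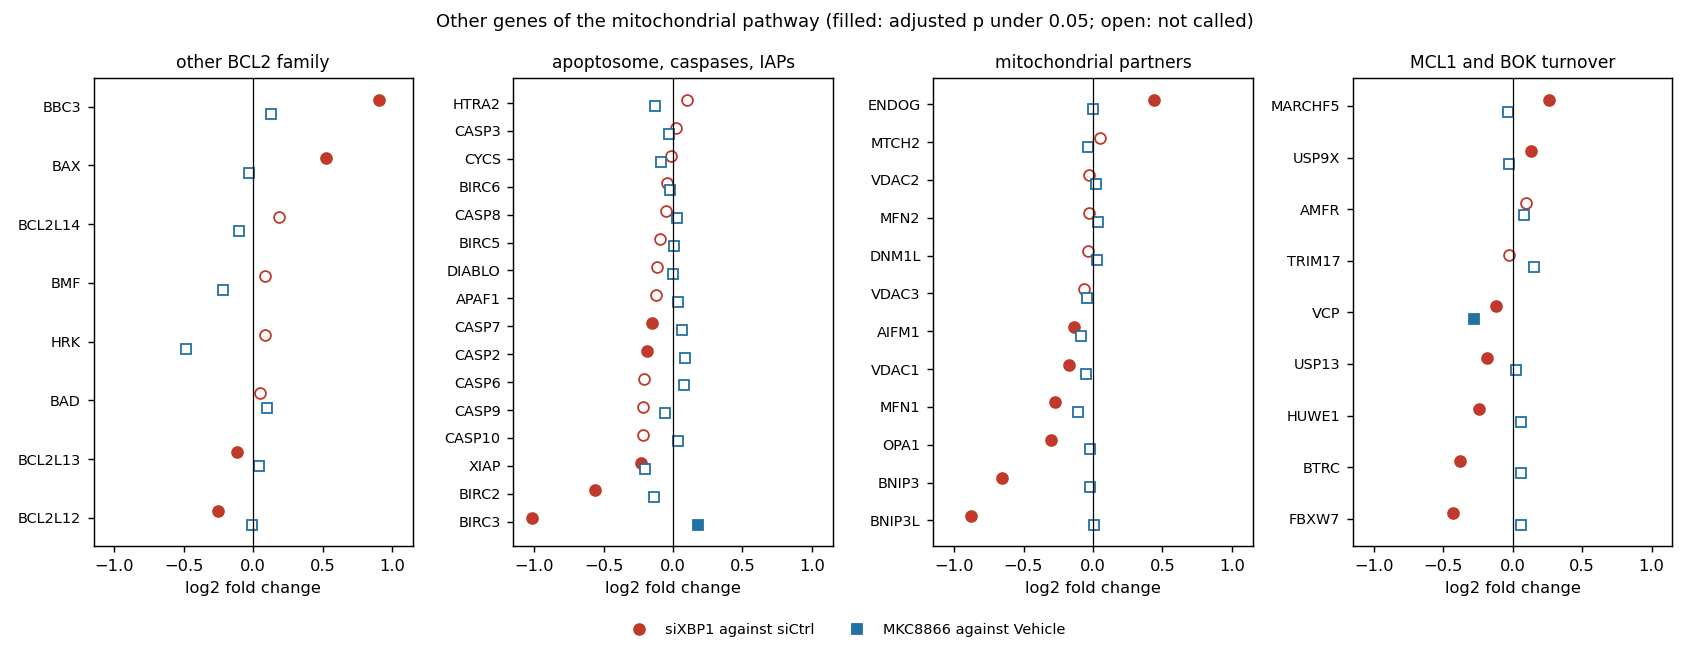
Log2 fold change of the other tested family members and of 3 lists around them, after knockdown (circles) and with MKC8866 (squares), filled where the adjusted p was under 0.05. After knockdown BBC3 is at 0.91 and BAX at 0.52, BIRC3 at -1.01 and BNIP3L at -0.88, while with MKC8866 VCP (-0.28) and BIRC3 (0.18) are the filled symbols.

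Of 13 genes that link ER stress to this pathway, 4 rose and 3 fell after knockdown. Those that fell include XBP1, the target of the siRNA itself. Over all genes tested, 16.5% rose and 18.2% fell after knockdown. DDIT3, the gene of CHOP, a transcription factor of the PERK arm, rose from 179 ± 6.70 to 247 ± 9.45 CPM (log2 fold change 0.46, edgeR adjusted p = 6.79e-09), with 28.0% of its exon bases shared with MARS1 on the opposite strand. TNFRSF10B, the death receptor DR5, rose by 0.21 (adjusted p = 0.000669), ITPR3, an ER calcium channel, by 0.28 (adjusted p = 0.000275), and TRIB3, a pseudokinase induced by CHOP, by 0.10 (adjusted p = 0.0447, held in 13 of 15 alternatives). ATF3, a stress transcription factor, was at -0.42 (adjusted p = 5.06e-08), and ERN1, the gene of IRE1α, at -0.16 on knockdown and 0.25 with MKC8866 (adjusted p = 0.00445 and 0.000618). ATF4 fell by 0.17 on the log2 scale with MKC8866 (edgeR adjusted p = 0.00715), where 2 genes of the list, ERN1 and XBP1, rose and 1 fell. With MKC8866, 1.36% of all genes tested rose and 3.11% fell.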

How the data were processed

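The deposited values are counts of fragments per gene, which the authors made by aligning stranded paired-end reads to GRCh38 with STAR 2.5.2a and counting over Ensembl genes with featureCounts 1.5.0 (versions from the submitters' processing notes), without regard to strand and without multimapping or multiply assigned fragments. A median of 30743136 fragments was counted per library. At this depth the spread between replicates (biological coefficient of variation 5.40% in the knockdown and 4.97% in the inhibitor experiment) limited precision for all but the weakest members.

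Samples were grouped by their labels. Tests were run in R 4.3.3 with edgeR 4.0.16 (TMM, quasi-likelihood F test, two-sided), in 1 model per treatment, for genes where each group had some library above 5 counts, adjusted over all genes tested and called under 0.05. The interaction and the contrast of the controls came from a fit of all 16 libraries. The alternatives were DESeq2 1.42.0, other scalings, filters, a replicate block and leaving out each library, and after seeing the data, lengths without shared exon bases. CPM used TMM-scaled totals, and CPM per kb the exon length in the count table. The rule for members uses names alone, but members, gene lists and tests were chosen with earlier results of these data known. All 10 members are named, and up to 4 called genes per list, direction and comparison by smallest adjusted p. Genes similar to a member were to be named for members called in both treatments or past a log2 change of 0.5, which none met. The pipeline was tested on simulated data. Reads over the XBP1 splice junction were not analysed here, and 1 luminal marker is not reported here.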

Additional observations from a re-analysis of the deposited data

Results flagged for a closer look

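The response to knockdown differed from that to MKC8866 for 5 members by the interaction test, of which BID passed in only 7 of 22 alternatives. The difference of log2 fold changes, knockdown minus inhibitor, was -0.29 for BCL2L1, -0.32 for BCL2L2, -0.22 for BAK1, 0.29 for BID and 0.47 for BIK. For BIK, siXBP1 had 11.8 ± 1.04 CPM against 8.58 ± 0.832 in siCtrl, and MKC8866 had 7.50 ± 0.458 against 7.55 ± 0.945 in Vehicle (SD, n = 4).

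In 3 of 40 groups of 4 libraries, 1 library stood far from the rest by Dixon's criterion, which chance meets in about 1 in 20 groups. MCL1 was at 238.0 CPM in siXBP1 replicate 3, above the other 3 libraries, and at 283.5 CPM in Vehicle replicate 1, below them. BIK was at 10.3 CPM in siXBP1 replicate 2, below the other 3.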

How the results depend on the processing

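The 7 members called after knockdown were called in each of the 15 alternatives, whose counts ran from 7 to 9 because BCL2, BOK or MCL1 were added under some. Leaving out each library gave 7 to 8 members. With MKC8866 the count went from 0 to 1 without a filter on low counts and to 1 with the replicate block (PMAIP1 in both), and from 0 to 1 over the leave-one-out fits. The interaction gave 4 to 5 members and siCtrl against Vehicle 4 to 6 on leaving out libraries. Small MKC8866 log2 fold changes changed sign without single libraries, over -0.022 to 0.023 for BAK1, -0.012 to 0.051 for BCL2L11, -0.062 to 0.077 for BIK and -0.010 to 0.019 for MCL1, and BIK was at 0.0053 with total counts only. PMAIP1 between siCtrl and Vehicle ranged from -0.0029 to 0.072. The causes were not tested.

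Same-numbered treated and control libraries correlated at 0.0084 to 0.061 in the knockdown and 0.079 to 0.32 in the inhibitor experiment. For differently numbered libraries the values were -0.13 to 0.12 and -0.21 to 0.14. In the inhibitor experiment 6 of 8 libraries correlated best with their own number, against 0 of 8 in the knockdown. The main tests did not use the numbers as pairs, and in the inhibitor experiment they may therefore have missed changes. With the replicate block, 2746 genes in place of 941 were called with MKC8866 and 7323 in place of 7311 after knockdown, and the members called were 7 after knockdown, 1 with MKC8866 and 4 in the interaction, which lost BID. No scaling tried moved the median of all genes by over 0.1 (log2). Low counts limited BCL2, BID and BIK most. Of the guardian shares under other lengths or without single libraries, 26 moved by the SD of their group or more and 70 did not.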
